A study of Mus musculus with 16 samples.

Results

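The transcripts described here are those of 10 direct targets of the transcription factor p53: Cdkn1a, Mdm2, Ccng1, Bax, Phlda3, Eda2r, Sesn1, Zmat3, Bbc3 and Pmaip1. They were chosen by name as established targets, as a look for the p53 response that DNA breaks made by an active Cre recombinase can set off, although earlier results of these data were known when they were listed. All 10 matched a single gene of the 55573 in the table, and all 10 were among the 19955 genes that passed the filter on low counts. Poly(A) RNA was sequenced from the ventricles of 16 male mice aged 16 weeks, 4 in each of 4 groups, 8 weeks after surgery. Transverse aortic constriction (TAC), a ligature that narrows the aorta and loads the left ventricle, was compared with sham surgery, and Trbp-cKO mice were compared with controls. All 16 mice carried homozygous floxed Trbp alleles and the αMHC-MerCreMer transgene, which expresses in cardiomyocytes a Cre that becomes active when tamoxifen binds it. At the age of 4 weeks the mice of the Trbp-cKO sham and Trbp-cKO TAC groups were injected over 5 days with tamoxifen, 30 mg/kg a day, and those of the control sham and control TAC groups with corn oil. Surgery followed 4 weeks later. Tamoxifen, Cre activity and the loss of Trbp therefore cannot be told apart in any comparison of Trbp-cKO with control hearts, and the RNA was collected long after the injections.

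p53 is held at a low level by Mdm2, a ubiquitin ligase that is itself encoded by a p53 target gene, so that the factor and its inhibitor form a feedback loop. After DNA damage, kinases release p53 from this inhibition, and the stabilized factor binds pairs of short half-sites near its target genes, which halt the cell cycle, limit growth signals, temper oxidative stress or start apoptosis. Several of the same genes also answer to other inputs: Cdkn1a is induced by glucocorticoids, TGF-β and clock factors, and Bbc3 and Pmaip1 by stress of the endoplasmic reticulum.

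The promoter sequence of the members was read from RefSeq windows of 250 bases before to 50 bases after annotated starts (GRCm38.p6), of which 12 belonged to 8 members. The p53 half-site consensus, which is its own reverse complement so that a single reading covers both strands, was found without mismatch in 5 of these 12 windows, 1 each for 5 members, and in 8.36% of the 32851 windows in the table. The stretches that hold it are shown because they carry the factor's consensus within these windows, and capitals mark the half-site. They are motif matches, and response elements of p53 targets can also lie outside such windows, as in the first intron of Mdm2. They lie at chr17:29090881-29090962 on the plus strand (Cdkn1a), chr10:117710910-117710969 on the minus strand (Mdm2), chr11:40755437-40755496 on the minus strand (Ccng1), chr7:45467065-45467124 on the minus strand (Bax) and chr10:41887241-41887300 on the plus strand (Sesn1). All are given 5′ to 3′ in the direction of transcription.
Cdkn1a: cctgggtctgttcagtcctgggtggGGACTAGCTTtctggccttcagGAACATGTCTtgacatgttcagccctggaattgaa
Mdm2: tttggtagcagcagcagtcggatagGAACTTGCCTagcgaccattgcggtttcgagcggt
Ccng1: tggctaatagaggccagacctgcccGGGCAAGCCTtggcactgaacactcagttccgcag
Bax: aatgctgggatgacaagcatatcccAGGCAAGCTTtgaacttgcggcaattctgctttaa
Sesn1: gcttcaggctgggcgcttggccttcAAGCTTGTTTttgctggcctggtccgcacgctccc
The first base of the half-site lay 73 and 51 bases before the start in Cdkn1a, which held 2 of them, 186 in Mdm2, 185 in Ccng1, 201 in Bax and 173 in Sesn1. The windows of Phlda3, Eda2r and Bbc3 and the other windows of Cdkn1a and Sesn1 did not hold these letters. With up to 2 mismatches and at most 13 bases between, a pair of half-sites was found in 4 of the 12 windows, 1 each of Cdkn1a, Ccng1, Bax and Sesn1, and in 10.1% of all windows. A match describes the sequence only, and binding was not measured.

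Total counts per heart lay between 45166994 and 68274222. Tarbp2, which encodes Trbp, was at 30.6 to 33.3 CPM (counts scaled to a common library total) in control sham, 21.1 to 31.1 in control TAC, 8.39 to 11.4 in Trbp-cKO sham and 7.14 to 9.74 in Trbp-cKO TAC hearts, so every heart lay on its label's side. On the first principal component, which held 30.6% of the variance, control TAC 1 and 2 and Trbp-cKO TAC 4 lay between -84.2 and -67.6 and the other 13 hearts between -18.3 and 43.2. Control TAC 1 and 2 also had 38.2% and 38.8% of their counts on mitochondrial genes, against 18.1% to 26.3% in the other 14 hearts. Values without these 3 hearts, a choice made after the values were seen, are given beside results for the members and several gene lists. That fit rests on hearts 3 and 4 of control TAC and 1 to 3 of Trbp-cKO TAC. The hearts left out had the highest levels of Postn, a marker of activated fibroblasts, in their groups. These were 388.5 and 443.5 CPM against 150.2 and 194.9 CPM, and 1299 CPM against 485.3 to 698.7 CPM. Every sham heart stayed in, so sham comparisons there use the same hearts, with filter, scaling and shared spread estimated anew. The summed level of 6 cardiomyocyte markers, none at 0 in any heart, was 17540 and 13560 CPM in control TAC 1 and 2, 22550 in Trbp-cKO TAC 4 and 29020 to 40120 in the other 13 hearts. Of these markers the troponin gene Tnni3 fell with TAC in Trbp-cKO hearts (-0.72, adjusted p = 0.0198). With the 3 hearts left out it fell there (-0.61, adjusted p = 0.000812), with the deletion in TAC hearts (-0.49, adjusted p = 0.0235) and in the average (-0.34, adjusted p = 0.0103), and with TAC in Trbp-cKO hearts Pln also fell (-0.56, adjusted p = 0.0222) and Actn2 rose (0.38, adjusted p = 0.0233). Some markers of fibroblasts, activated fibroblasts, smooth muscle and atrial tissue changed with the groups, as given beside Phlda3. In such bulk RNA, fewer cells of a type and less RNA per cell cannot be told apart.

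The members differed widely in level. Per kilobase of exon, Ccng1 was the most abundant, with a mean of 166 ± 53.7 CPM (SD, n = 16 hearts). Sesn1 (20.8 ± 6.16), Bax (14.6 ± 4.04), Cdkn1a (14.1 ± 9.42), Mdm2 (13.2 ± 1.76) and Phlda3 (12.9 ± 6.88) followed, and the hearts' ranges of these 5 overlapped, while Ccng1 and Bbc3 lay outside them in every heart. Bbc3 was at 2.13 ± 0.528, Zmat3 at 0.840 ± 0.139, Eda2r at 0.617 ± 0.160 and Pmaip1 at 0.324 ± 0.114 CPM per kilobase, and of these 4 the ranges of Zmat3 and Eda2r and of Eda2r and Pmaip1 overlapped. Pmaip1 rested on 28 to 106 counts per heart, so its counting error was the largest of the 10.

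No group of tamoxifen-treated mice without Cre was analysed here. A member was called where its adjusted p in edgeR's quasi-likelihood test, over all genes tested, was at or under 0.05. The deletion in sham hearts called 1 member, Cdkn1a, which was lower, where 1.68% of all genes passed, 1.02% as higher and 0.666% as lower. In TAC hearts the deletion called 1 member, Cdkn1a, which was higher, where 5.53% of all genes passed, 3.88% as higher and 1.65% as lower. The average of both deletion effects called Phlda3 alone, as higher (5.45% of all genes, 3.84% higher and 1.61% lower). TAC called 2 members in control hearts, Phlda3 as higher and Cdkn1a as lower (6.29% of all genes, 4.09% higher and 2.2% lower), and 3 in Trbp-cKO hearts, Cdkn1a, Phlda3 and Zmat3, all higher (9.94% of all genes, 6.02% higher and 3.92% lower). The interaction, the deletion effect in TAC minus that in sham hearts, called Cdkn1a (1.05% of all genes, 0.591% higher and 0.456% lower). With the study's fold threshold of 0.8 on the log2 scale added, the average called none of the members and TAC in Trbp-cKO hearts called Cdkn1a and Phlda3, and the other calls held. The shares of all genes were then 0.967% and 2.46% for the deletion in sham and TAC hearts, 1.45% for the average, 3.75% and 5.57% for TAC in control and Trbp-cKO hearts and 0.872% for the interaction. Mdm2, Ccng1, Bax, Eda2r, Sesn1, Bbc3 and Pmaip1 passed in none of the 6 comparisons.

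In no comparison did all 10 members lie on the same side of 0. The median log2 fold change of the 10 was -0.09 for the deletion in sham hearts, 0.06 in TAC hearts and 0.0010 for the average, against medians over all genes of 0.0099, -0.011 and 0.0063. For TAC it was 0.06 in control and 0.24 in Trbp-cKO hearts, against 0.025 and -0.0016 over all genes. For the interaction it was 0.24, against -0.012 over all genes, and 0.21 without the 3 hearts that stand apart. The members' median without the 3 hearts that stand apart was -0.092 for the deletion in sham hearts, 0.23 in TAC hearts, 0.036 for the average, -0.0083 for TAC in controls and 0.23 for TAC in Trbp-cKO hearts. With all hearts, the number of members above 0 was 4 of 10 for the deletion in sham hearts, 8 for the deletion in TAC hearts, 5 for TAC in control and 8 for TAC in Trbp-cKO hearts. It was 5 for the average and 7 for the interaction. The comparisons share groups of hearts, so these values are not independent of one another.

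**Figure D1:**
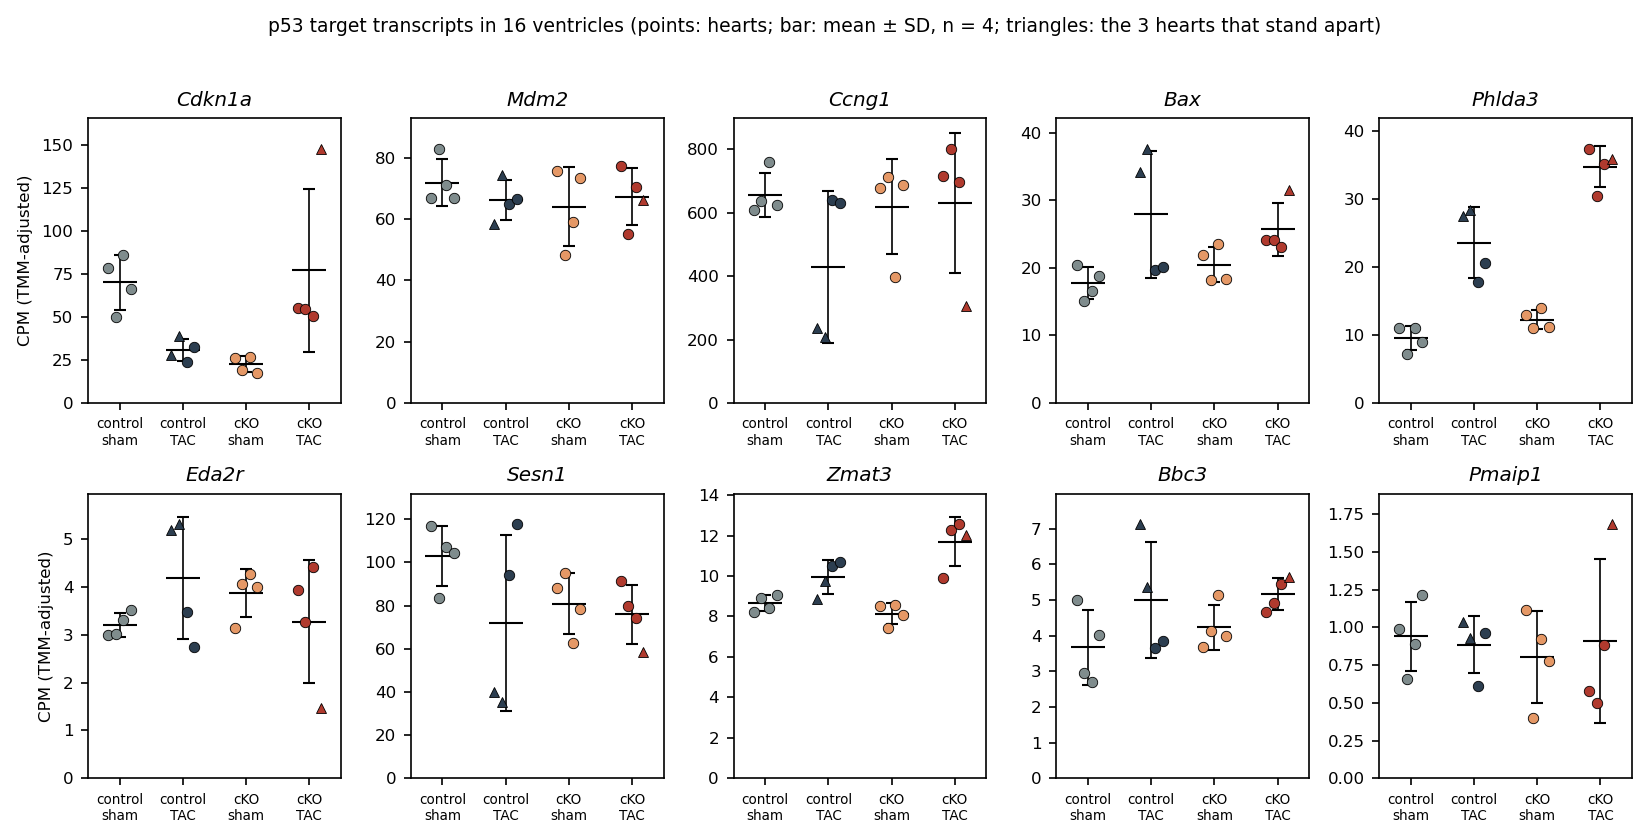
CPM of each of the 10 p53 targets in the 16 hearts by group, each panel with its own linear axis from 0. Points are hearts, triangles are control TAC 1 and 2 and Trbp-cKO TAC 4, and bars give the mean ± SD of 4 hearts. Cdkn1a is low in control TAC and Trbp-cKO sham hearts, Phlda3 is high in both TAC groups, and in Ccng1, Sesn1 and Bax the triangles lie away from the other hearts of their groups.

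**Figure D2:**
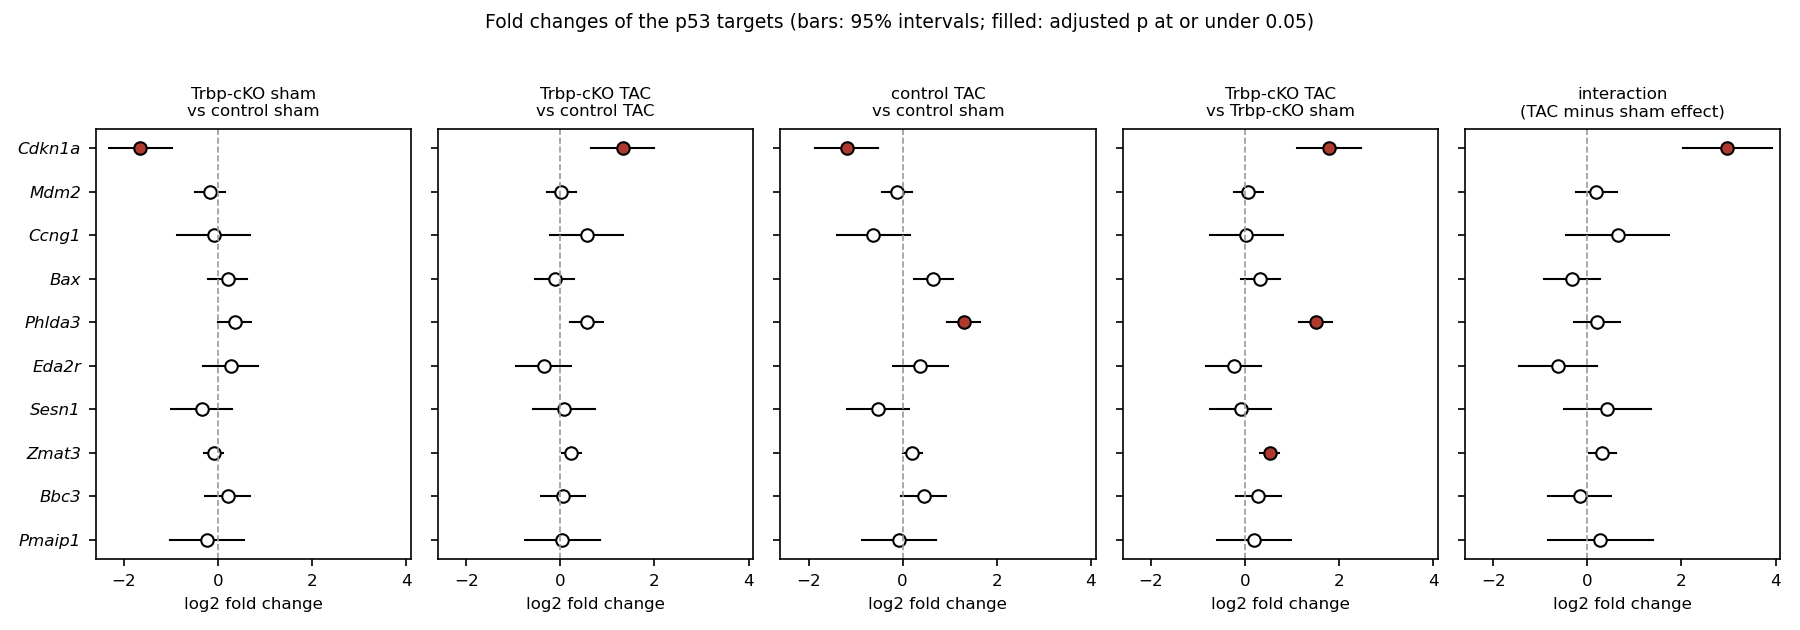
log2 fold changes of the 10 members in 4 pairwise comparisons and in the interaction, with 95% intervals as bars. Filled points passed the adjusted p. Cdkn1a lies at -1.65 and 1.33 for the deletion in sham and in TAC hearts, and most other members lie near 0 with intervals that include it.

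Cdkn1a (ENSMUSG00000023067, chr17:29090976-29100727) encodes p21, the inhibitor of cyclin-dependent kinases through which p53 halts the cell cycle, and it was the member whose response to the deletion turned around with surgery. Its level was 78.7, 49.8, 86.1 and 66.1 CPM in control sham hearts 1 to 4 and 26.3, 19.4, 26.4 and 17.4 CPM in Trbp-cKO sham hearts. It was 27.8, 39.0, 23.9 and 32.3 CPM in control TAC and 55.3, 54.9, 50.4 and 148 CPM in Trbp-cKO TAC hearts. In both surgeries the Trbp-cKO and control hearts did not overlap, and the order was opposite, since the deleted hearts were the lower ones after sham surgery and the higher ones after TAC.

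The fall with the deletion in sham hearts was -1.65 on the log2 scale (SE 0.316, adjusted p = 0.0172), from a mean of 70.2 ± 15.9 to 22.4 ± 4.67 CPM (SD, n = 4 each), or 3.14-fold. The rise with the deletion in TAC hearts was 1.33 (SE 0.313, adjusted p = 0.0236), from 30.7 ± 6.501 to 77.2 ± 47.3 CPM, or 2.51-fold. The exact permutation test of CPM, two-sided, gave p = 0.0286 for each, the smallest that 4 hearts against 4 allow, and 14.7% of all genes in sham and 10% in TAC hearts had groups that did not overlap. The interaction was 2.98 (SE 0.445, 95% interval 2.03 to 3.93, adjusted p = 0.00635). Averaged over both surgeries the deletion effect was -0.16 (95% interval -0.62 to 0.30, adjusted p = 0.754).

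TAC changed Cdkn1a in opposite directions as well. It fell by 1.19 on the log2 scale in control hearts (SE 0.312, adjusted p = 0.0364) and rose by 1.79 in Trbp-cKO hearts (SE 0.317, adjusted p = 0.00195). Neither pair of groups overlapped, as for 17.4% of all genes in control and 17.2% in Trbp-cKO hearts. The control sham hearts overlapped with the Trbp-cKO TAC hearts, and the low groups were control TAC and Trbp-cKO sham.

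Single hearts weighed on the Cdkn1a calls. The sham call was lost without control sham 3 (adjusted p = 0.0579), Trbp-cKO sham 2 (0.0671) or Trbp-cKO sham 4 (0.0643), and the log2 change stayed between -1.79 and -1.54 with any heart left out. In TAC hearts the call was lost without control TAC 1 (adjusted p = 0.0735) or control TAC 3 (0.0526), and without Trbp-cKO TAC 4, which held 148 CPM, the change was 0.80 (adjusted p = 0.0307). In a fit of these groups alone it did not pass (adjusted p = 0.170). The fall with TAC in controls was lost without control sham 1 (0.0775), 3 (0.0988) or 4 (0.0706) or control TAC 1 (0.110) or 2 (0.0590). The rise with TAC in Trbp-cKO hearts and the interaction passed with any heart left out, at 1.26 to 1.94 and 2.45 to 3.14. Without the 3 hearts that stand apart, all 5 tests that called Cdkn1a still did, at -1.66 and 0.92 for the deletion in sham and TAC hearts, -1.32 and 1.26 for TAC in control and Trbp-cKO hearts, and 2.58 for the interaction. Exons of the gene overlap those of AC167363.2 on the opposite strand over 7.68% of their length, and the sources used here do not say whether counting used strand.

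Circadian clock transcripts differed between the sham groups, as Cdkn1a did. A score of clock genes, the mean standardized log2 CPM of a 10-gene arm led by Dbp minus that of a 5-gene opposite arm led by Arntl, divided by 2, was -1.21 to -0.55 in control sham, -0.0029 to 0.11 in control TAC, 0.82 to 0.96 in Trbp-cKO sham and -0.89 to 0.50 in Trbp-cKO TAC hearts. The control TAC scores lay inside the range of the Trbp-cKO TAC hearts. In the deletion in sham hearts 7 of 10 genes of the first arm rose and 3 of 5 of the second fell, where 1.02% of all genes rose and 0.666% fell. Dbp, a clock output factor, was at 21.1 to 37.0 CPM in control sham and 153 to 190 CPM in Trbp-cKO sham hearts, and the core clock activator Arntl at 12.5 to 20.3 and 2.11 to 3.18 CPM. The score does not overlap between the sham groups, nor between the sham and TAC hearts of either genotype. Clock state and group cannot be told apart in those comparisons. With the score in the fit the Cdkn1a difference in sham hearts was -1.09 (SE 0.761, adjusted p = 0.894) and the interaction 2.35 (SE 0.865, adjusted p = 0.680), and neither passed. That fit called 0 of the 19955 genes in sham hearts and 1 for the interaction, against 336 and 209 without the score. TAC in control (-0.91, adjusted p = 0.288) and Trbp-cKO hearts (1.44, adjusted p = 0.230) did not pass either. The rise with the deletion in TAC hearts was 1.26 (SE 0.324, adjusted p = 0.0434) in that fit and passed. Within the Trbp-cKO TAC group, hearts 1 and 2 had scores of 0.34 and 0.50 and heart 3 of -0.89, and their Cdkn1a levels were 55.3, 54.9 and 50.4 CPM. Heart 4 of that group had a score of -0.43 and the highest Cdkn1a level of the 16 hearts, 148 CPM. The time of day at collection is not given in the sources used here, and the part of clock state in the Cdkn1a values was not tested.

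**Figure D3:**
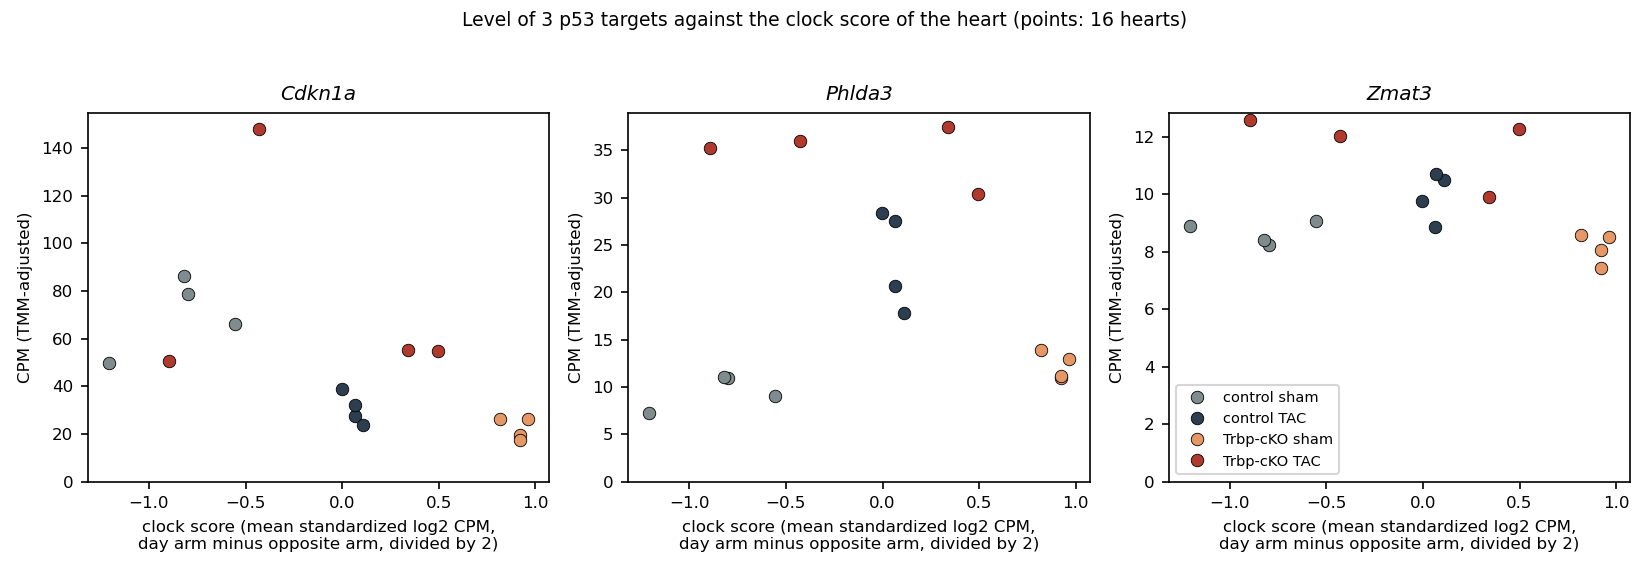
CPM of Cdkn1a, Phlda3 and Zmat3 on linear axes from 0 against the clock score, 1 point per heart, coloured by group. Control sham hearts lie at -1.21 to -0.55 and Trbp-cKO sham hearts, the highest, at 0.82 to 0.96, and the 4 Trbp-cKO TAC hearts span -0.89 to 0.50.

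The genes whose log2 CPM followed that of Cdkn1a most closely over the 16 hearts were Cebpd (Pearson r = 0.89), Thbs1 (0.88) and Irf2bpl (0.88), none of them a member. Cebpd, a transcription factor of acute stress and inflammation, had its highest level, 95.4 CPM, in Trbp-cKO TAC 4, the heart with the highest Cdkn1a. Thbs1, a matrix protein that activates latent TGF-β, was at 10.2 to 18.2 CPM in Trbp-cKO sham and 55.0 to 262 CPM in control sham hearts. These correlations describe 16 hearts that share groups.

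Mdm2, the inhibitor and feedback target of p53, stayed within a narrow range. It was at 66.7, 83.0, 71.2 and 66.8 CPM in control sham, 58.5, 74.5, 65.0 and 66.4 in control TAC, 75.7, 48.2, 59.0 and 73.3 in Trbp-cKO sham and 77.2, 55.0, 70.4 and 66.3 in Trbp-cKO TAC hearts. The 4 groups overlapped throughout. Its deletion effect was -0.17 in sham (95% interval -0.48 to 0.14, adjusted p = 0.709) and 0.02 in TAC hearts (-0.29 to 0.34, adjusted p = 0.941), and for TAC the intervals were -0.43 to 0.19 in control and -0.24 to 0.38 in Trbp-cKO hearts. The 4 intervals thus lay between -0.48 and 0.38.

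Trp53 itself and Mdm4, the second inhibitor of p53, passed in no comparison. Trp53 was at 16.1 to 22.0 CPM in control sham, 17.8 to 39.6 in control TAC, 19.8 to 27.3 in Trbp-cKO sham and 18.4 to 28.1 in Trbp-cKO TAC hearts. Its highest values, 39.6 and 35.4 CPM, were those of control TAC 1 and 2, and the other hearts of that group were at 18.9 and 17.8 CPM. Of 12 core regulators of p53, the damage kinase gene Chek2 was lower with the deletion in TAC hearts (-1.14, adjusted p = 0.0211), and the histone gene H2afx, whose product is phosphorylated at DNA breaks, was higher in the average deletion effect (0.36, adjusted p = 0.0250). Of all genes, 1.65% were called lower with the deletion in TAC hearts and 3.84% higher in the average. Without the 3 hearts that stand apart, the Chek2 difference was -0.41 (adjusted p = 0.263) and that of H2afx 0.39 (adjusted p = 0.00968). In the same fit, which called 8.21% of all genes with the deletion in sham hearts, H2afx was higher there (0.45, adjusted p = 0.0166). Trp53bp1, which encodes a protein recruited to DNA breaks, was lower there (-0.25, adjusted p = 0.0454). With TAC in Trbp-cKO hearts that fit called 17.1% of all genes. Among them were Chek2 (-0.63, adjusted p = 0.0160) and the p53 phosphatase gene Ppm1d (-0.44, adjusted p = 0.0106), both lower. Trp53bp1 was higher (0.25, adjusted p = 0.0387). None of these calls for the deletion in sham hearts or for TAC in Trbp-cKO hearts passed with all hearts.

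Phlda3, which encodes a repressor of AKT signalling at the membrane, rose with TAC in both genotypes (ENSMUSG00000041801, chr1:135766119-135769136). Its level was 10.98, 7.23, 11.01 and 9.01 CPM in control sham, 27.6, 28.4, 17.8 and 20.6 in control TAC, 12.9, 10.95, 13.9 and 11.2 in Trbp-cKO sham and 37.4, 30.4, 35.2 and 35.9 in Trbp-cKO TAC hearts. Groups did not overlap for 17.4% of all genes with TAC in controls, 17.2% with TAC in Trbp-cKO hearts and 10% with the deletion in TAC hearts. For Phlda3, every TAC heart lay above every sham heart of either genotype, and every Trbp-cKO TAC heart lay above every control TAC heart. TAC raised it by 1.303 on the log2 scale in control (SE 0.164, adjusted p = 0.000678) and by 1.504 in Trbp-cKO hearts (SE 0.164, adjusted p = 4.2e-05), or 2.47-fold and 2.84-fold. The interaction was 0.20 (95% interval -0.28 to 0.69, adjusted p = 0.713).

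The deletion effect on Phlda3 was smaller. It was 0.36 in sham (SE 0.162, adjusted p = 0.342) and 0.56 in TAC hearts (SE 0.161, adjusted p = 0.0553), and the average of both, 0.46 (SE 0.114, adjusted p = 0.0293), passed. This average call was lost without control sham 2 (adjusted p = 0.0550) or 4 (0.0643), Trbp-cKO sham 1 (0.0584) or 3 (0.0530) or Trbp-cKO TAC 1 (0.0597), and it lies below the fold threshold. Without the 3 hearts that stand apart, the difference in TAC hearts was 0.83 and passed (adjusted p = 0.0100), and the average was 0.59. With the clock score in the fit the TAC effects were 1.32 and 1.48 and passed in both genotypes, and the average, 0.47, did not (adjusted p = 0.375). The score does not overlap between the sham and TAC hearts of either genotype, so that fit cannot set clock state apart from surgery.

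Markers of activated fibroblasts rose beside Phlda3. Their summed level over 6 markers, none at 0 in any heart, was 208 to 358 CPM in control sham, 313 to 829 in control TAC, 481 to 729 in Trbp-cKO sham and 1140 to 2664 in Trbp-cKO TAC hearts. Of the 6, Postn, Cthrc1, Comp and Cilp rose with TAC in both genotypes, and Acta2 fell with TAC in controls. With the deletion Postn, Acta2, Cthrc1 and Cilp rose in TAC hearts and in the average, and Acta2 rose in sham hearts (1.18, adjusted p = 0.0417). With the 3 hearts that stand apart left out, Comp also rose in TAC hearts and in the average, Postn, Acta2, Cthrc1 and Cilp rose in sham hearts, and the fall of Acta2 with TAC in controls was lost (-1.39, adjusted p = 0.0510). Postn and Cilp were the markers called with TAC in controls without the 3 hearts that stand apart, and the same 4 rose in Trbp-cKO hearts. Among the genes whose log2 CPM followed Phlda3 most closely were Ltbp2 (r = 0.98), which encodes a latent TGF-β binding protein, and the matricellular gene Postn (0.98). Postn was at 34.6 to 42.8 CPM in control sham and 485 to 1299 CPM in Trbp-cKO TAC hearts. The summed level of the 4 atrial markers was 542 to 1018 CPM in control sham, 1616 to 3860 in control TAC, 1009 to 1516 in Trbp-cKO sham and 10260 to 15680 CPM in Trbp-cKO TAC hearts, and 1 or 2 of them were at 0 in 3, 4, 2 and 0 hearts of these groups. Nearly all of this sum was Nppa, a natriuretic peptide gene that loaded ventricles also express, and the atrial light chain gene Myl7 was at 0 to 0.479 CPM, and its 4 highest values, 0.293 CPM and above, were those of the Trbp-cKO TAC hearts. Another atrial light chain gene, Myl4, was at 1.14 to 1.96 CPM in control TAC and 3.94 to 7.20 CPM in Trbp-cKO TAC hearts, and was higher with the deletion in TAC hearts (1.897, adjusted p = 0.000190) and with TAC in Trbp-cKO hearts (1.32, adjusted p = 0.00103). The summed level of 4 smooth muscle markers, none at 0, was 3472 to 3897 CPM in Trbp-cKO TAC and 1274 to 2611 CPM in the other 12 hearts. Nearly all of this sum was Des, which cardiomyocytes also express, and the smooth muscle myosin gene Myh11 was at 36.3 ± 6.89 CPM in control TAC and 32.8 ± 7.30 CPM in Trbp-cKO TAC hearts (SD, n = 4 each). Cnn1 and Des rose with the deletion in TAC hearts, of which Des alone passed without the 3 hearts that stand apart, and Tagln, Cnn1 and Des rose with TAC in Trbp-cKO hearts with and without them. Of 6 fibroblast markers, whose sum was 1460 to 2482 CPM over all hearts, none at 0, Lum and Col1a1 rose with TAC in controls and in the average deletion effect. Lum rose with the deletion in sham hearts, and Col1a1 rose with the deletion in TAC hearts (1.00, adjusted p = 0.0129) and with TAC in Trbp-cKO hearts (1.74, adjusted p = 0.000110). In each of these 2 Col1a1 comparisons 2 of the 6 markers lay above 0. The list's medians there were -0.04 and -0.07, and 0.16 and -0.13 without the 3 hearts that stand apart. Lum was lower in the interaction. These fibroblast calls held without the 3 hearts. The part of these lists in the Phlda3 values was not tested.

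Zmat3, which encodes an RNA-binding zinc finger protein that acts in splicing downstream of p53, moved less and with a small spread (ENSMUSG00000027663, chr3:32334792-32366014). It was at 8.22, 8.90, 8.42 and 9.06 CPM in control sham, 8.86, 9.77, 10.5 and 10.7 in control TAC, 8.50, 7.43, 8.59 and 8.06 in Trbp-cKO sham and 9.91, 12.3, 12.6 and 12.04 in Trbp-cKO TAC hearts. The Trbp-cKO TAC hearts lay above all Trbp-cKO sham hearts, groups that did not overlap for 17.2% of all genes. TAC raised it there by 0.52 on the log2 scale (SE 0.0963, adjusted p = 0.00256), or 1.44-fold, and by 0.51 without the 3 hearts that stand apart, and the call held with any heart left out, at an adjusted p of 0.00152 to 0.0124. With the clock score in the fit it was 0.42 and did not pass (adjusted p = 0.230). In control hearts the TAC difference was 0.20 (95% interval -0.0018 to 0.41, adjusted p = 0.191), and the interaction was 0.32 (95% interval 0.03 to 0.61, adjusted p = 0.273). The genes closest to it were Rhoa (r = 0.92), Gm12092 (0.92) and Acot9 (0.91).

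No comparison called Ccng1 or Sesn1, and their lowest values came from the same few hearts. Ccng1 encodes cyclin G1, which recruits a phosphatase to Mdm2, and Sesn1 encodes sestrin 1, which restrains mTORC1 and oxidative stress. Ccng1 was at 608, 638, 760 and 624 CPM in control sham, 236, 207, 640 and 631 in control TAC, 679, 714, 398 and 689 in Trbp-cKO sham and 717, 803, 698 and 305 in Trbp-cKO TAC hearts. The low hearts were control TAC 1 and 2, Trbp-cKO TAC 4 and, less so, Trbp-cKO sham 3, and the other 12 lay between 608 and 803 CPM. These 4 hearts also had the highest summed level of 5 endothelial markers in their groups, 1179, 1210, 906 and 974 CPM, none at 0, and 3 of them had the lowest cardiomyocyte sums of all hearts. Trbp-cKO sham 3 had the lowest cardiomyocyte sum of its group, 31590 CPM. The part of these markers in the Ccng1, Sesn1 and Bax values was not tested.

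Sesn1 was low in the same control TAC hearts, at 39.97 and 35.4 CPM against 94.4 and 118 CPM in hearts 3 and 4. It was 83.4 to 117 CPM in control sham, 62.5 to 94.9 in Trbp-cKO sham and 58.4 to 91.6 in Trbp-cKO TAC hearts. Over the 16 hearts the log2 CPM of Ccng1 and Sesn1 correlated at r = 0.88, and with Bax they correlated at -0.83 each. The TAC difference in controls was -0.62 for Ccng1 (95% interval -1.40 to 0.16, adjusted p = 0.280) and -0.52 for Sesn1 (-1.17 to 0.14, adjusted p = 0.283). Without the 3 hearts that stand apart these were -0.051 and 0.045, and Sesn1 was then lower in the average deletion effect (-0.37, adjusted p = 0.0472).

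**Figure D4:**
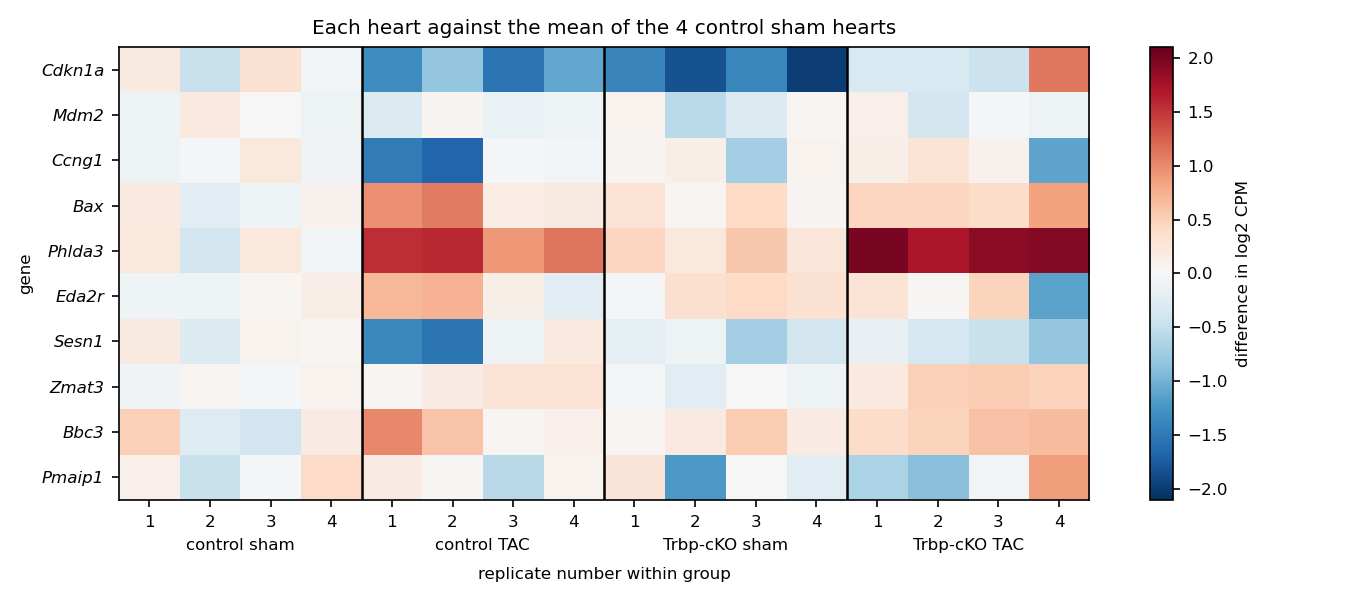
Difference in log2 CPM of each heart from the mean of the 4 control sham hearts, for the 10 members (rows) and 16 hearts (columns, by replicate within group). Red is higher and blue is lower. Control TAC 1 and 2 are low in Ccng1 and Sesn1 and high in Bax, Phlda3 and Bbc3, while the Phlda3 row is red in all 8 TAC hearts.

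The apoptotic members, Bax, which opens pores in the outer mitochondrial membrane, and the BH3-only genes Bbc3 (PUMA) and Pmaip1 (NOXA), were not called. Bax was at 20.4, 15.1, 16.6 and 18.8 CPM in control sham, 34.2, 37.6, 19.7 and 20.0 in control TAC, 21.8, 18.2, 23.5 and 18.3 in Trbp-cKO sham and 24.0, 24.1, 23.0 and 31.5 in Trbp-cKO TAC hearts. The 3 hearts that stand apart were the highest of the 16. With TAC in controls Bax differed by 0.65 (95% interval 0.23 to 1.07, adjusted p = 0.0590), and without those hearts by 0.17. DESeq2 called this difference (adjusted p = 0.0232), as did the fits without control TAC 3 (0.0190), control TAC 4 (0.0211) or Trbp-cKO TAC 4 (0.0445). Exons of Bax overlap those of Gm45808 on the same strand over 12.2% of their length.

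Bbc3 was at 2.69 to 5.01 CPM in control sham, 3.64 to 7.13 in control TAC, 3.68 to 5.14 in Trbp-cKO sham and 4.67 to 5.65 in Trbp-cKO TAC hearts, and the groups overlapped. Its deletion effect was 0.21 in sham (95% interval -0.27 to 0.68) and 0.05 in TAC hearts (-0.42 to 0.52), with adjusted p of 0.779 and 0.920. Pmaip1 was between 0.399 and 1.68 CPM over all hearts, and its intervals for the deletion, -1.03 to 0.56 in sham and -0.75 to 0.83 in TAC hearts were the widest of the 10 members.

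Of the 12 other BCL-2 family genes, those that rose with the deletion in TAC hearts were 2 survival genes, where 3.88% of all genes rose. Bcl2 rose by 1.15 (adjusted p = 0.00311), from 17.4 ± 5.78 to 38.7 ± 3.60 CPM (SD, n = 4 each), and Bcl2l2 by 0.95 (adjusted p = 0.00118), from 43.3 ± 8.08 to 83.9 ± 9.18 CPM. With TAC in Trbp-cKO hearts Bcl2 rose by 1.54 (adjusted p = 0.000143), and the BH3-only gene Bcl2l11 fell by 0.68 (adjusted p = 0.00505). With TAC in controls Bok, a BAX relative, rose by 1.02 (adjusted p = 0.0353). Without the 3 hearts that stand apart, Bcl2 and Bcl2l2 differed by 1.59 and 0.79 between TAC groups and passed, and Bok differed by 0.23 with TAC in controls and did not (adjusted p = 0.488). Bok and Bcl2l2 were then higher with the deletion in sham hearts, where 8.21% of all genes passed. With TAC in Trbp-cKO hearts Bcl2 and Bcl2l2 were then higher and Bcl2l11 lower, where 17.1% of all genes passed.

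Eda2r, the receptor of the ectodysplasin isoform A2, was at 3.00 to 3.53 CPM in control sham, 2.74 to 5.31 in control TAC, 3.14 to 4.27 in Trbp-cKO sham and 1.48 to 4.41 in Trbp-cKO TAC hearts. The highest hearts were control TAC 1 and 2 and the lowest was Trbp-cKO TAC 4. Its deletion effect was 0.27 in sham (95% interval -0.31 to 0.85, adjusted p = 0.761) and -0.35 in TAC hearts (-0.93 to 0.23, adjusted p = 0.484). Edar, which encodes the related receptor of isoform A1, rose in the average deletion effect (0.95, adjusted p = 0.0441), a call lost without the 3 hearts that stand apart (0.74, adjusted p = 0.0687).

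Another list of 30 direct p53 targets was read in the same comparisons. With the deletion in sham hearts 1 of the 30 rose, Ephx1, an epoxide hydrolase (0.89, adjusted p = 0.0132), and the list's median was 0.03, where 1.02% of all genes rose. With the deletion in TAC hearts 1 rose, the stress cytokine gene Gdf15 (1.95, adjusted p = 0.0466), at a list median of 0.04, where 3.88% of all genes rose. With the 3 hearts that stand apart left out Gdf15 still rose there and Perp, an apoptosis gene, fell (-0.64, adjusted p = 0.0196), where 5.98% of all genes passed. With TAC in controls Gdf15 (2.60), the kinase gene Plk2 (1.21), Ckap2 (1.13) and Ephx1 (0.97) rose, and the growth arrest gene Gadd45a (-0.83) and Dglucy (-1.33) fell. Of all genes, 4.09% rose and 2.2% fell there. With TAC in Trbp-cKO hearts Gdf15 rose by 4.44 (adjusted p = 0.000254) and Gadd45a fell by 1.03 (adjusted p = 0.00201), where 6.02% of all genes rose and 3.92% fell.

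Gdf15 was at 3.54 to 9.13 CPM in control sham, 66.0, 70.9, 8.41 and 15.2 in control TAC, 4.52 to 10.7 in Trbp-cKO sham and 132 to 209 in Trbp-cKO TAC hearts. The control TAC hearts that were high were those that stand apart. Without the 3 such hearts, the Gdf15 difference was 3.76 with the deletion in TAC hearts (adjusted p = 0.00201) and 0.84 with TAC in controls (adjusted p = 0.416). Of the 6 list genes called with TAC in controls, Ephx1 and Dglucy (-0.70) then still passed, where 2.58% of all genes did. For the deletion in sham hearts 2 of the 30 then rose, Ephx1 and Plk2, and 4 fell, Fas, Perp, Aen and Tigar. In that comparison 8.21% of all genes then passed, against 1.68% with all hearts. The sham hearts were the same in both fits, and the list's median was 0.028, against 0.034 with all hearts. For TAC in Trbp-cKO hearts, where 17.1% of all genes then passed, 3 of the 30 rose, Gdf15, Aen (0.55) and Psrc1 (0.71). Another 4 fell, Gadd45a (-1.19), Ddb2 (-0.70), Ak1 (-0.34) and Dglucy (-0.79). Gdf15 also answers to ATF4, the factor of the integrated stress response, and the part of ATF4 in the Gdf15 values was not tested. With TAC in Trbp-cKO hearts 6 of 13 tested ATF4 targets rose, where 6.02% of all genes did. Among them were Nupr1 (2.296), Atf3 (1.40), Ppp1r15a (1.118) and Atf5 (0.73), and 8 of the 13 lay above 0, at a median of 0.19. Ppp1r15a, a phosphatase subunit that ends the integrated stress response, was lower with the deletion in sham (-0.64, adjusted p = 0.0371) and higher in TAC hearts (0.94, adjusted p = 0.00163), the same order as Cdkn1a.

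A list of 18 cell cycle genes known to be repressed through p53 and p21 was read as well. With TAC in controls 5 of the 18 rose, where 4.09% of all genes did, among them Cdc25c (1.21), Cdc20 (1.04), Ccna2 (0.89) and Mcm6 (0.76), at a list median of 0.76 against 0.025 over all genes. With TAC in Trbp-cKO hearts, where 6.02% of all genes rose, 1 of the 18 did, Cdc25c (0.93, adjusted p = 0.0439), at a median of 0.12. Without the 3 hearts that stand apart this call was lost (0.80, adjusted p = 0.104) and the median was 0.028. With the deletion in sham hearts, where Cdkn1a fell most, edgeR called 0 of the 18 (3 at an unadjusted p under 0.05), and 1.68% of all genes passed. The proliferation marker Mki67, the other gene of the 5, was at 15.1 CPM in control TAC 1 against 10.8 in the next heart of its group, and without the 3 hearts that stand apart the list's median with TAC in controls was 0.46 and the calls were lost. The list's median was 0.33 for the deletion in sham and -0.21 in TAC hearts, and without the 3 hearts 0.33 and -0.0087. With all hearts 17 of the 18 lay above 0 for the deletion in sham and 2 in TAC hearts. For TAC 18 lay above 0 in control and 13 in Trbp-cKO hearts. For the interaction 1 lay above 0, at a median of -0.58, and without the 3 hearts the median was -0.46. Among relatives of the members, Cdkn1c, which encodes the CDK inhibitor p57, was lower in Trbp-cKO TAC hearts than in control TAC (-1.13, adjusted p = 0.00885) and Trbp-cKO sham hearts (-1.21, adjusted p = 0.00248), where Cdkn1a was higher, and without the 3 hearts the first difference was -0.80 (adjusted p = 0.0514). Another CDK inhibitor gene, Cdkn2b, was then called higher with the deletion in TAC hearts, where 5.98% of all genes passed.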

How the data were processed

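The deposited values are counts per gene and heart. Per the paper's methods and, for versions, the submitters' processing notes, the authors removed adapters (cutadapt 2.3), mapped paired reads to GRCm38 (HISAT2 2.1.0), assembled transcripts on an annotation (StringTie 1.3.4) and took gene counts from its prepDE script. That script converts coverage with an assumed read length, which is not given in the sources used here, so counts may differ from fragments by a common factor. Counting by strand is not given either. Total counts were 45166994 to 68274222 per heart. Promoter windows came from RefSeq (GRCm38.p6). Symbols and positions came from GENCODE M21, which placed 55480 of the 55573 genes.

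Counts were analysed with edgeR 4.0.16 in R 4.3.3: default filter, TMM, and a robust quasi-likelihood fit of all 16 hearts with 1 coefficient per group, tested on simulated data first. Adjusted p are Benjamini-Hochberg values over 19955 genes. The study's methods name an exact test and a fold threshold of 0.8, which were alternatives, beside those in the closing section, which include DESeq2 1.42.0. CPM use TMM-adjusted library sizes. Single genes were compared by an exact permutation test over 70 assignments. Correlations used log2 CPM with a prior count of 2. The members and lists were chosen with earlier results of these data known. Named are all members, list genes that passed (at most 4 per list and comparison), Trp53, Mdm4, Tarbp2 and the 3 genes closest to each called member, of which 1 is not reported here. Dbp, Arntl, Myl7, Mki67, the cardiomyocyte, smooth muscle and fibroblast genes, list genes named without the 3 hearts and the heart values of Gdf15 were chosen after their values were seen. No libraries were identical. The labels call the 4 hearts of a group biological replicates.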

Additional observations from a re-analysis of the deposited data

Results flagged for a closer look

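The effect of the deletion on Cdkn1a differed between the surgeries: the difference in TAC minus that in sham hearts was 2.98 on the log2 scale (adjusted p = 0.00635, edgeR's quasi-likelihood test).

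Among 132 groups of 4 hearts, over 33 genes that the text draws on, 10 had a heart far from the others by Dixon's test, and chance gives about 1 in 20. Among the members, these were Cdkn1a at 148 CPM in Trbp-cKO TAC 4 (the next heart was at 55.3), Bax at 31.5 CPM in the same heart (24.1) and Ccng1 at 398 CPM in Trbp-cKO sham 3 (679). Mdm4 was at 81.7 CPM in Trbp-cKO TAC 4 (52.6). Among other genes, Cdkn1c was at 44.0 CPM in Trbp-cKO sham 3 (25.0), Cdc20 at 1.48 CPM in Trbp-cKO sham 2 (2.39), Gdf15 at 209 CPM in Trbp-cKO TAC 3 (143), Mcm2 at 7.77 CPM in control TAC 3 (6.18), and Ckap2 at 3.13 CPM (1.69) and Mki67 at 15.1 CPM (10.8) in control TAC 1. Trbp-cKO TAC 4 and control TAC 1 are among the 3 hearts that stand apart on the first principal component.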

How the results depend on the processing

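Of 1574 values of the members' 60 fold changes under alternatives, 71 changed sign, and 0 of these passed the adjusted p either with all hearts or under the alternative. The cause of the changes below was not tested.

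For the deletion in TAC hearts the number of members called, 1 with all hearts, was 3 with scaling by library size (10.2% of all genes, against 5.53% with all hearts), 2 with DESeq2 (2107 of 19927 genes), 2 without the 3 hearts that stand apart (5.98%, a choice made after seeing the data), and 0 in edgeR's fit of only these groups (0.509%; 2 members at an unadjusted p under 0.05). For the average deletion effect, 1 with all hearts, it was 0 under the fold threshold (1.45% of all genes), 0 with the clock score (0.386%; 1 unadjusted) and 2 without the 3 hearts (11%). With the clock score it was 0 for the deletion in sham hearts (0 unadjusted, against 1 with DESeq2 without the score), where 0 of 19955 genes passed, 1 for TAC in controls (0.296% of all genes), 1 for TAC in Trbp-cKO hearts (1.68%) and 0 for the interaction (1 unadjusted), where 1 gene passed. With single hearts left out it was 0 to 1 for the deletion in sham hearts, 0 to 2 in TAC hearts, 0 to 1 for the average and 1 to 3 for TAC in controls.

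Replicate numbers did not pair the hearts: 7 of 24 same-number pairs correlated above 0.1 (-0.77 to 0.508). With the replicate block, edgeR called 0 members for the deletion in TAC hearts (2.33% of all genes, 3 members unadjusted, Cdkn1a 1.25, adjusted p = 0.0739), 0 for the average (3.17%, 1 unadjusted) and 1 for TAC in controls (2.56%), and Pmaip1 was -0.061 for the deletion in TAC hearts.

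Library-size scaling moved the median of all genes by 0.097, 0.14 and 0.12 for the deletion in sham hearts, in TAC hearts and their average. Under it Ccng1 was 0.0091 and Zmat3 0.010 in sham hearts, Bax 0.028 in TAC hearts, and Mdm2 0.047, Eda2r 0.080 and Pmaip1 0.026 in the average. With the clock score Mdm2 was 0.087, -0.0015, 0.043, 0.010, -0.078 and -0.089 and Pmaip1 0.73, -0.12, 0.31, 0.40, -0.45 and -0.85 for the deletion in sham, in TAC, the average, TAC in controls, TAC in Trbp-cKO and the interaction. Zmat3 was 0.087 in sham hearts, Cdkn1a 0.081 and Ccng1 -0.041 in the average, and Sesn1 0.26 for TAC in Trbp-cKO.

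Without the 3 hearts, the deletion in TAC hearts gave Bax 0.25, Eda2r 0.31, Sesn1 -0.38 and Pmaip1 -0.28, the average gave Eda2r 0.28, TAC in controls gave Eda2r -0.047 and Sesn1 0.045, TAC in Trbp-cKO gave Sesn1 0.011 and Pmaip1 -0.28, and the interaction gave Bax 0.047, Eda2r 0.045, Sesn1 -0.034, Bbc3 0.21 and Pmaip1 -0.033.

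Leaving out single hearts gave, for the deletion in sham hearts, Ccng1 -0.16 to 0.077. In TAC hearts it gave Mdm2 -0.047 to 0.11, Bax -0.26 to 0.054, Sesn1 -0.16 to 0.425, Bbc3 -0.079 to 0.26 and Pmaip1 -0.43 to 0.25. The average gave Bax -0.029 to 0.13, Eda2r -0.13 to 0.080, Sesn1 -0.25 to 0.039 and Pmaip1 -0.33 to 0.020. TAC in controls gave Pmaip1 -0.22 to 0.058. TAC in Trbp-cKO gave Mdm2 -0.045 to 0.16, Ccng1 -0.14 to 0.25, Eda2r -0.42 to 0.00057, Sesn1 -0.20 to 0.015 and Pmaip1 -0.28 to 0.40. The interaction gave Bbc3 -0.34 to 0.061 and Pmaip1 -0.20 to 0.48. The average and the interaction have no exact test or fit of only 2 groups.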
